A study of Homo sapiens with 6 samples.

Results

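The genes described here are 10 regulators and markers of the epithelial-mesenchymal transition (EMT), out of 60612 genes in a deposited table of PANC-1 cells. They were taken by gene name: the transcription factors ZEB1, ZEB2, SNAI1, SNAI2 and TWIST1, the mesenchymal markers VIM, CDH2, FN1 and S100A4, and the epithelial splicing regulator ESRP1. Poly(A) RNA was sequenced in 3 libraries of cells given 50 µM D(+)-raffinose pentahydrate, a plant trisaccharide, for 24 h and in 3 libraries of PANC-1 cells for which the labels name no compound, vehicle or time, called untreated below. PANC-1 is an established human pancreatic carcinoma cell line, and all 6 libraries are of that line. The protocol text attached to the untreated libraries also names raffinose, and the groups follow the sample titles. Separate cultures are not stated for any group, so p-values measure the spread between libraries, which may be technical. Coordinates are those of the deposited table, whose build is not stated in the labels.

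In EMT, epithelial cells lose cell-cell junctions and take on the shape and motility of mesenchymal cells. ZEB, SNAI and TWIST proteins drive it as repressors that bind E-boxes in genes such as CDH1, while vimentin, N-cadherin and fibronectin mark the mesenchymal side. ESRP1 and ESRP2 keep epithelial splice forms, and the miR-200 microRNAs target ZEB1 and ZEB2, whose proteins in turn repress the miR-200 genes.

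The ZEB and miR-200 arm can be read in sequence, and it is shown here because ZEB1 and ZEB2 had the largest positive fold changes among the members. Neither fold change passed the test over all genes that is described below. In the mature miR-200 sequences from RefSeq (GRCh38.p14), capitals mark the seed, bases 2 to 8. miR-200b, miR-200c and miR-429 share the seed AAUACUG, and miR-200a and miR-141 share AACACUG.
hsa-miR-200b-3p: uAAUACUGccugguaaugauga
hsa-miR-200c-3p: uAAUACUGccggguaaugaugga
hsa-miR-429: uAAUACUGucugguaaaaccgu
hsa-miR-200a-3p: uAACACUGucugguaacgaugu
hsa-miR-141-3p: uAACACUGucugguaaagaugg

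In the longest 3' untranslated region that GENCODE 29 (GRCh38) gives for ZEB1, the 7-base match CAGTATT to the first seed occurred 6 times, and in that of ZEB2 it occurred 5 times. Of 19132 genes with such a region, 16% held at least 1 match, 3 genes held 6 or more and 7 held 5 or more. Among the other members FN1 held 2 matches, SNAI2 and ESRP1 held 1 each, and SNAI1, TWIST1, VIM, CDH2 and S100A4 held none. The match CAGTGTT to the second seed occurred 3 times in ZEB1, 4 times in ZEB2 and 1 time in ESRP1. Of all genes with such a region, 18.3% held at least 1, 200 genes held 3 or more and 58 held 4 or more. Region lengths differ between genes, 2549 bases for ZEB1 and 5370 for ZEB2, so these counts are not per length. The matches to the first seed are shown in capitals, read 5' to 3' on the strand of the gene (plus for ZEB1, minus for ZEB2), with GRCh38 positions of the printed stretch.
ZEB1 chr10:31527621-31527644: gttttatcttatCAGTATTatcac
ZEB1 chr10:31527715-31527738: ctaaatccgcttCAGTATTttatt
ZEB1 chr10:31528144-31528167: agtgccatttctCAGTATTttcaa
ZEB1 chr10:31528495-31528518: atttttacctatCAGTATTatttt
ZEB1 chr10:31528565-31528588: cttcaaacctggCAGTATTaatac
ZEB1 chr10:31529216-31529239: tttcatcattatCAGTATTttctt
ZEB2 chr2:144389048-144389071: actaccatacatCAGTATTtttat
ZEB2 chr2:144388985-144389008: actacaatgcatCAGTATTatgat
ZEB2 chr2:144388627-144388650: aagcacccatgtCAGTATTagaag
ZEB2 chr2:144388542-144388565: cattaattttgtCAGTATTacacc
ZEB2 chr2:144388411-144388434: tactgtagtgtaCAGTATTatagt

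The host transcript of miR-200c and miR-141, MIR200CHG on chromosome 12, was listed at 0 in all 6 libraries, while ZEB1 was read in all 6. At 3 read pairs per library, the limit that a count of 0 allows, its level could have been up to 0.186 to 0.203 CPM (counts scaled to library size) in a library. Mature microRNAs are not measured in poly(A) libraries and were not analysed here. The RefSeq promoters of MIR200CHG and ZEB1, from 250 bases before the start to 50 after it, are shown as genes of this arm, picked by name. Each holds 1 E-box of the form CAGGTG or its reverse complement CACCTG (capitals), searched on both strands.
MIR200CHG chr12:6962995-6963294 plus strand GRCh38.p14: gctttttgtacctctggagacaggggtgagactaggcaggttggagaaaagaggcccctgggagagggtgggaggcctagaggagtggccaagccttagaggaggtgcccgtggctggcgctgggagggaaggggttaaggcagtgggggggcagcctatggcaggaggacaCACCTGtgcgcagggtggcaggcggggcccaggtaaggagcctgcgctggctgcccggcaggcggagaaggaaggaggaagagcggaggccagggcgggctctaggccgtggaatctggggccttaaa
ZEB1 chr10:31318167-31318466 plus strand GRCh38.p14: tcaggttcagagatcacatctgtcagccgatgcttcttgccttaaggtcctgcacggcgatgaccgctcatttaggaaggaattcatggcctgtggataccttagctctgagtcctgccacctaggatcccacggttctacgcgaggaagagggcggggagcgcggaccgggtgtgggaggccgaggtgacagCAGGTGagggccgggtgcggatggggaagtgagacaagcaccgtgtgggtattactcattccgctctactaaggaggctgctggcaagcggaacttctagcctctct

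The E-box began at -78 from the start in MIR200CHG and at -57 in ZEB1. Of 27305 promoters of this length, 20.6% held at least 1. Among the members, 6 had a promoter in the table: ZEB1 and S100A4 held 1 match each and ZEB2, VIM, CDH2 and FN1 held none. SNAI1, SNAI2, TWIST1 and ESRP1 had no entry.

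The members differed widely in FPKM, a level scaled to transcript length and depth. VIM, the type III intermediate filament protein of mesenchymal cells, was far above the rest at 706 to 862 FPKM. S100A4, a calcium-binding protein linked to cell motility, followed at 7.67 to 12.1 FPKM and CDH2, or N-cadherin, at 3.96 to 5.86 FPKM. SNAI1 and ZEB1, with means over the 6 libraries of 2.91 and 2.40 FPKM, overlapped in range, and SNAI1 was the higher in 5 of 6 libraries. SNAI2, with a mean of 0.684 FPKM, and the matrix protein gene FN1, with 0.545 FPKM, also overlapped. ZEB2 averaged 0.0994 FPKM and ESRP1 0.0624 FPKM, with overlapping ranges. TWIST1, a basic helix-loop-helix factor (ENSG00000122691, chromosome 7, 19020991 to 19117118, minus strand), was listed at 0 in every library, which at the limit of 3 read pairs allows up to 0.186 to 0.203 CPM. All other neighbours in this order had ranges that did not overlap, as the plot of FPKM by library shows.

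**Figure D1:**
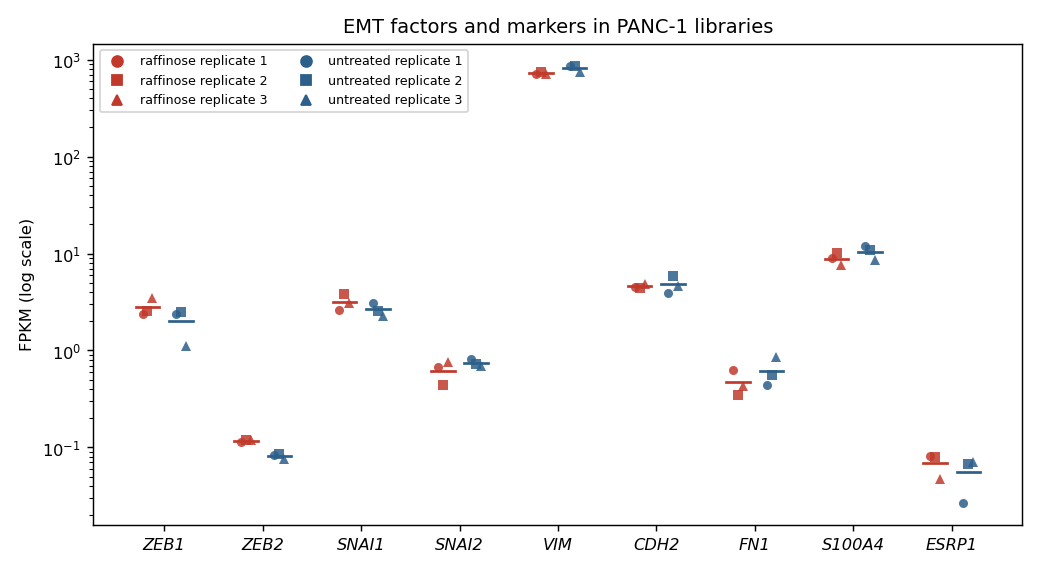
FPKM on a log scale for 9 members in each library, raffinose left and untreated right, with a bar at the group mean; TWIST1, listed at 0 throughout, is not drawn. VIM lies between 706 and 862 FPKM, and ZEB2 is the one member whose groups do not overlap.

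No member passed the test of raffinose-treated against untreated cells. Of the 10 members, 9 passed the filter on low counts and were tested, and 0 were called by edgeR's quasi-likelihood test at an adjusted p under 0.05, where 0.122% of all 18863 tested genes were called (0.0371% higher and 0.0848% lower with raffinose). By DESeq2, which gave ESRP1 no adjusted p, 0 members were called as well, against 3.51% of tested genes. Unadjusted, ZEB2 and VIM had an edgeR p under 0.05, 2 of 9 members, against 13.3% of tested genes. The groups did not overlap in CPM for 1 of the 9 members, ZEB2, against 21.5% of tested genes. In bulk RNA fewer cells of a type and less RNA per cell cannot be told apart.

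ZEB2, a zinc finger E-box repressor (ENSG00000169554, chromosome 2, 144364364 to 144520400, minus strand), measured 3.56, 3.73 and 3.71 CPM in raffinose replicates 1, 2 and 3, against 2.71, 2.71 and 2.47 CPM in untreated replicates 1, 2 and 3. All 3 raffinose libraries were above all 3 untreated ones. The log2 fold change was 0.48 (SE 0.13, 95% interval 0.16 to 0.80), with an edgeR adjusted p of 0.231 and a DESeq2 adjusted p of 0.0989, so that it did not pass over all genes. Of all tested genes 4.27% had a smaller p. One read pair seems to add 4 to a deposited count, so these values rest on about 57 to 60 read pairs per raffinose library and 36 to 44 per untreated library.

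ZEB1, its paralog and a repressor of CDH1 in carcinoma cells (ENSG00000148516, chromosome 10, 31318495 to 31529813, plus strand), measured 24.7, 26.8 and 34.8 CPM in raffinose replicates 1, 2 and 3, against 25.8, 25.7 and 11.7 CPM in untreated replicates 1, 2 and 3. Untreated replicate 3 was the lowest of all 6 libraries and raffinose replicate 3 the highest, and the groups overlapped. The log2 fold change was 0.45 (SE 0.31, edgeR adjusted p = 0.592), and it was 0.16 without untreated replicate 3 and 0.29 without raffinose replicate 3. The coefficient of variation of ZEB1 over untreated libraries was 38.3%, larger than that of 94.3% of the 11701 tested genes with a mean of at least 1 FPKM, whose median was 8.51%. ZEB1-AS1, an antisense RNA that overlaps the first 1953 bases of ZEB1, was at 3.24 CPM in that library, against 2.35 and 2.81 CPM in the other untreated ones, so it was not low where ZEB1 was. A pseudogene inside ZEB1 on the same strand, SPTLC1P1, had a log2 fold change of -0.70 (SE 0.37) on 5 to 13 read pairs per library.

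SNAI1, or Snail, a zinc finger repressor (ENSG00000124216, chromosome 20, 49982980 to 49988886, plus strand), measured 5.25, 7.76 and 6.20 CPM in raffinose replicates 1, 2 and 3, against 6.62, 5.21 and 4.71 CPM in untreated replicates 1, 2 and 3. The groups overlapped, and the log2 fold change of 0.21 (SE 0.20) had an edgeR adjusted p of 0.702. It was 0.05 without raffinose replicate 2, 0.11 without untreated replicate 3, 0.34 without raffinose replicate 1 and 0.36 without untreated replicate 1. SNAI2, or Slug, its paralog (ENSG00000019549, chromosome 8, 48917598 to 48921440, minus strand), measured 2.64, 1.75 and 2.89 CPM with raffinose, against 3.36, 2.85 and 2.77 CPM without. Its log2 fold change of -0.30 (SE 0.23) had the opposite sign and an edgeR adjusted p of 0.622, and was -0.12 without raffinose replicate 2. In FPKM the ratio of SNAI1 to SNAI2 was 8.62 in raffinose replicate 2, where SNAI1 was highest and SNAI2 lowest, and 3.29 to 4.13 in the other 5 libraries.

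VIM (ENSG00000026025, chromosome 10, 17228241 to 17237593, plus strand) measured 4412, 4630 and 4261 CPM in raffinose replicates 1, 2 and 3, against 5537, 5342 and 4614 CPM in untreated replicates 1, 2 and 3. Only raffinose replicate 2 exceeded the lowest untreated library, so the groups overlapped in that library alone. The log2 fold change was -0.22 (SE 0.08, 95% interval -0.40 to -0.04), with an edgeR adjusted p of 0.307. Its antisense RNA VIM-AS1, which overlaps the first 1745 bases of VIM, lay the other way, at 3.22, 2.78 and 3.56 CPM with raffinose, against 1.9, 1.80 and 2.10 CPM without. VIM-AS1 had a log2 fold change of 0.72 (SE 0.17) and did not overlap between groups. It was called by DESeq2 (adjusted p = 0.028) and not by edgeR (adjusted p = 0.183). The kit marks strand, but whether the counting used it is not given in the sources used here, so reads of VIM and VIM-AS1 in the overlap may not be told apart. A further antisense RNA inside VIM, AL133415, measured 14.1 ± 2.21 CPM with raffinose and 13.9 ± 2.35 CPM without (SD, n = 3 each), with overlapping groups and a log2 fold change of 0.02 (SE 0.17).

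**Figure D2:**
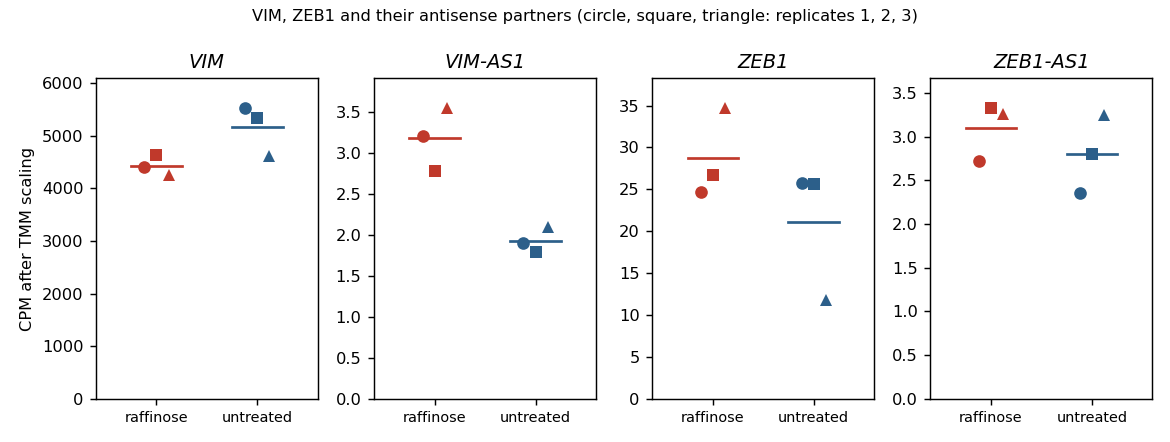
CPM of VIM, VIM-AS1, ZEB1 and ZEB1-AS1 in each library, raffinose left and untreated right, bars at group means and axes from 0. VIM-AS1 separates the groups, and the low ZEB1 value is untreated replicate 3 at 11.7 CPM.

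CDH2 (ENSG00000170558, chromosome 18, 27932879 to 28177946, minus strand) measured 45.5, 45.9 and 49.1 CPM in raffinose replicates 1, 2 and 3, against 42.2, 60.3 and 48.5 CPM in untreated replicates 1, 2 and 3. The raffinose values lay inside the untreated range, with a log2 fold change of -0.10 (SE 0.13, edgeR adjusted p = 0.789). FN1 (ENSG00000115414, chromosome 2, 215360440 to 215436073, minus strand) measured 12.9, 7.38 and 8.76 CPM with raffinose, against 9.62, 11.7 and 18.0 CPM without. Its groups overlapped, and its log2 fold change was -0.44 (SE 0.30, edgeR adjusted p = 0.582), or -0.14 without untreated replicate 3, which held its highest value, -0.28 without raffinose replicate 2 and -0.70 without raffinose replicate 1. S100A4 (ENSG00000196154, chromosome 1, 153543613 to 153550136, minus strand) measured 10.1, 11.4 and 8.48 CPM with raffinose, against 14.2, 12.3 and 9.77 CPM without. It overlapped between groups as well (log2 fold change -0.28, SE 0.18, edgeR adjusted p = 0.566), with -0.14 without untreated replicate 1 and -0.17 without raffinose replicate 3. S100A3 lies within S100A4 on the same strand, so reads could be split between them, and it had a log2 fold change of -0.24 (SE 0.20).

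ESRP1 (ENSG00000104413, chromosome 8, 94641074 to 94707466, plus strand) measured 0.484, 0.474 and 0.295 CPM in raffinose replicates 1, 2 and 3, against 0.171, 0.403 and 0.439 CPM in untreated replicates 1, 2 and 3. These stand for about 5 to 8 read pairs per raffinose library and 3 to 6 per untreated library. The 95% interval of its log2 fold change, -0.86 to 1.47 (edgeR adjusted p = 0.831), spans both directions, and a difference was not detectable at this depth. Over the 9 tested members 4 fold changes were positive and 5 negative, with a median of -0.10, where all tested genes had a median of 0.01.

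**Figure D3:**
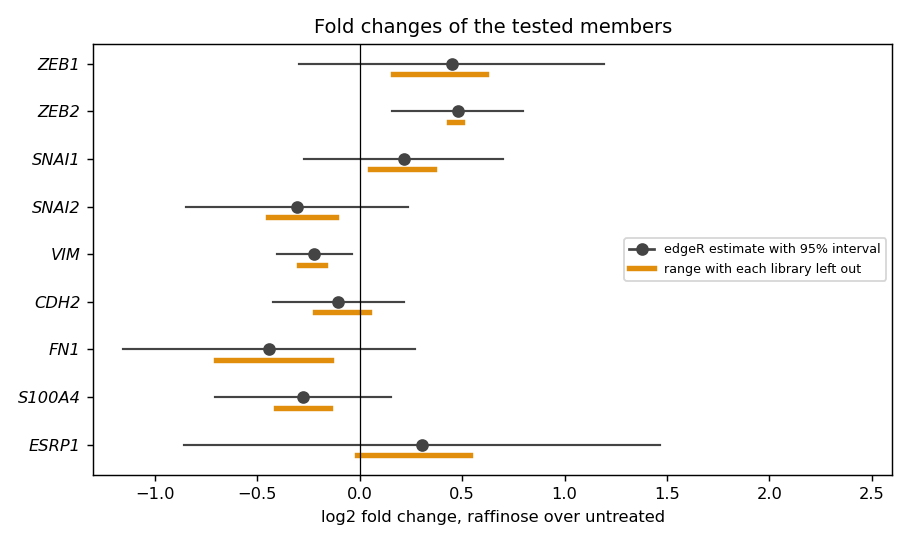
Log2 fold change of raffinose over untreated for the 9 tested members, with 95% intervals from edgeR and, in orange, the range when each library is left out in turn. The intervals of ZEB2 and VIM lie to one side of 0, and the orange ranges of CDH2 and ESRP1 cross it.

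Genes of the epithelial and of the mesenchymal side were both read in raffinose-treated and in untreated cells. CDH1, the E-cadherin gene that ZEB and SNAI proteins repress, was at 9.08 to 10.1 FPKM with raffinose, against 9.20 to 11.5 FPKM without, above CDH2 in every library. The ratio of CDH2 to CDH1 in FPKM was 0.488 ± 0.00389 in raffinose-treated and 0.470 ± 0.0392 in untreated cells (SD, n = 3 each). ESRP2, the paralog of ESRP1, was at 3.59 to 4.30 FPKM with raffinose, against 4.05 to 4.86 FPKM without, 44.7 to 152 times the level of ESRP1. The keratin genes KRT8 and KRT18 of simple epithelia were also high, KRT18 at 364 to 405 FPKM with raffinose, against 500 to 557 FPKM without. Of the 29 genes in the epithelial list, 15 reached a mean of 1 FPKM, among them the claudin gene CLDN7 at 7.39 to 8.502 FPKM with raffinose, against 9.41 to 10.3 FPKM without. Others were low, with EPCAM at 0.113 to 0.290 FPKM and the epithelial regulator OVOL2 at 0.166 to 0.358 FPKM over the 6 libraries. OVOL1 was listed at 0 in all libraries, and GRHL2 had at most 12 counts, or 3 read pairs. TWIST2 and SNAI3, paralogs of members, reached at most 0.290 and 0.217 FPKM and were both listed at 0 in untreated replicate 3.

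P-cadherin, CDH3, had the smallest p among the tested epithelial genes. Its level was 9.67 ± 1.64 CPM in raffinose-treated and 18.7 ± 0.725 CPM in untreated cells (SD, n = 3 each), lower in all 3 raffinose libraries. Its log2 fold change of -0.95 (SE 0.14) was called by DESeq2 (adjusted p = 1.72e-06) and not by edgeR (adjusted p = 0.0984). DESeq2 called 3.51% of all tested genes and edgeR 0.122%. KRT18 (-0.46), KRT8 (-0.56) and the plakophilin gene PKP3 (-0.52), all also lower in 3 of 3 raffinose libraries, were likewise called by DESeq2 and not by edgeR, whose adjusted p were 0.119, 0.164 and 0.10. The ratio of VIM to KRT18 in FPKM was 1.80, 1.84 and 1.94 in raffinose replicates 1, 2 and 3, against 1.55, 1.72 and 1.46 in untreated replicates 1, 2 and 3. The raffinose libraries lay above the untreated ones in this ratio, which was chosen after its values were seen and has no test. Both of its genes had negative log2 fold changes, -0.22 for VIM and -0.46 for KRT18. The ratio of VIM to KRT8 overlapped between groups. It was 2.92, 2.78 and 2.27 in raffinose replicates 1, 2 and 3, against 2.05, 2.54 and 1.76 in untreated replicates 1, 2 and 3.

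**Figure D4:**
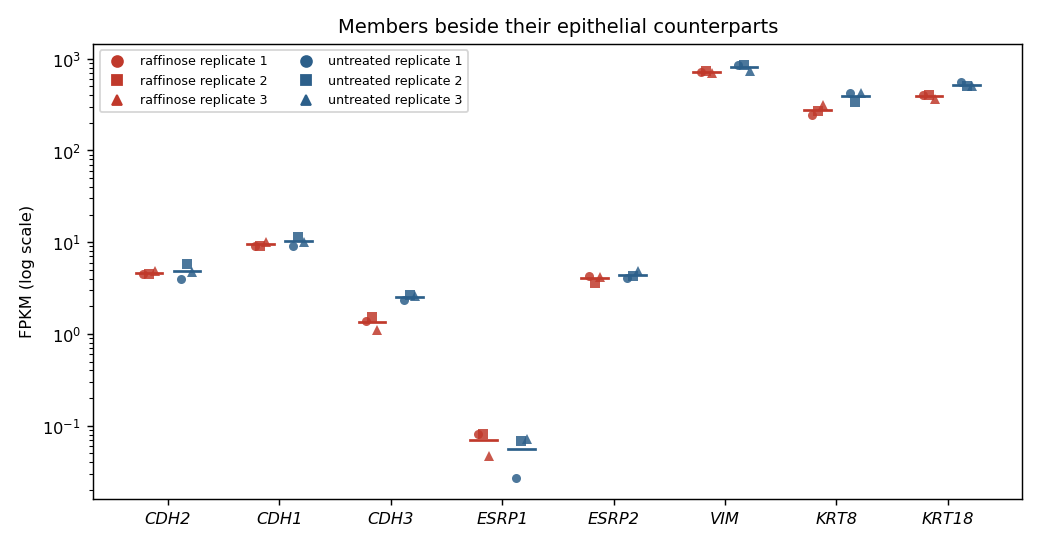
FPKM on a log scale of CDH2, ESRP1 and VIM beside epithelial counterparts in each library, raffinose left and untreated right, bars at group means. CDH1 lies above CDH2 and ESRP2 above ESRP1 in every library, and CDH3, KRT8 and KRT18 do not overlap between groups.

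The wider programme was read from lists of genes with the same test. Of 16 tested further EMT transcription factors 0 were called by edgeR and 6 had an unadjusted p under 0.05, 0 of them higher and 6 lower, where 13.3% of all tested genes had such a p. By DESeq2, which called 3.51% of all tested genes, 2 were lower, SOX4 (log2 fold change -0.37) and the E-box factor TCF3 (-0.38). The median of all 16 was -0.09. Of 16 corepressors that ZEB and SNAI proteins recruit, such as CTBP1 (-0.15, SE 0.08) and the demethylase KDM1A (0.01, SE 0.05), 0 were called by edgeR, 1 had an unadjusted p under 0.05 and DESeq2 called that 1 lower, the methyltransferase SETDB1 (-0.25). Among 19 genes of SNAI1 and ZEB1 protein turnover 0 were called by either tool and 4 had an unadjusted p under 0.05, with LOXL2, which stabilises Snail, at -0.19 (SE 0.05) and the deubiquitinase USP47 at 0.30 (SE 0.09). Among 12 splicing factors of EMT 0 were called by either tool and 2 had an unadjusted p under 0.05.

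Of 29 tested further mesenchymal genes 0 were called by edgeR, 7 had an unadjusted p under 0.05, 3 higher and 4 lower, against 13.3% of all tested genes, and the list's median was -0.06. DESeq2, which called 3.51% of all tested genes, called 1 higher and 3 lower. The lower ones were the matrix gene TNC (-0.97), the hyaluronan receptor CD44 (-0.59) and COL3A1 (-0.22). Among 11 tested fibronectin receptors and assembly genes 1 higher and 3 lower had an unadjusted p under 0.05, against 13.3% of all tested genes. TGM2, a transglutaminase that cross-links matrix, was at 382 ± 10.7 CPM in raffinose-treated cells, against 538 ± 8.65 CPM in untreated cells (SD, n = 3 each). TGM2 was the one list gene that edgeR called (log2 fold change -0.49, SE 0.05, adjusted p = 0.0263), lower in 3 of 3 libraries, but with any 1 library removed it no longer passed. Of all tested genes edgeR called 0.122%. DESeq2 called 2 genes of this list, both lower, against 3.51% of all tested genes. They were TGM2 and the syndecan SDC4 (-0.26), which edgeR did not call. ITGB1, the beta subunit of fibronectin receptors, had a log2 fold change of 0.33 (SE 0.12) and passed neither test.

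In the S100 list 11 genes were tested, 0 were called by edgeR and 2 had an unadjusted p under 0.05, against 13.3% of all tested genes. S100A6 (-0.43) was lower by DESeq2 and stood 41.0 to 55.4 times above S100A4 in FPKM. Among 9 other intermediate filament genes 0 were called by either tool and 3 had an unadjusted p under 0.05, against the same 13.3%. The vimentin partner NES had a log2 fold change of 0.43 (SE 0.17). Among 9 cadherin and catenin genes 1, CDH3, had an unadjusted p under 0.05, again against 13.3% of all tested genes. Among 22 tested epithelial genes 0 were called by edgeR, and 11 fold changes were positive and 11 negative. An unadjusted p under 0.05 was found for 6, 1 higher and 5 lower, against 13.3% of all tested genes. DESeq2 called the 5 lower ones, against 3.51% of all tested genes. Of 7 EMT microRNA host genes 4 were tested, 0 were called by either tool and 0 had an unadjusted p under 0.05, and MIR200CHG and MIR205HG were listed at 0.

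**Figure D5:**
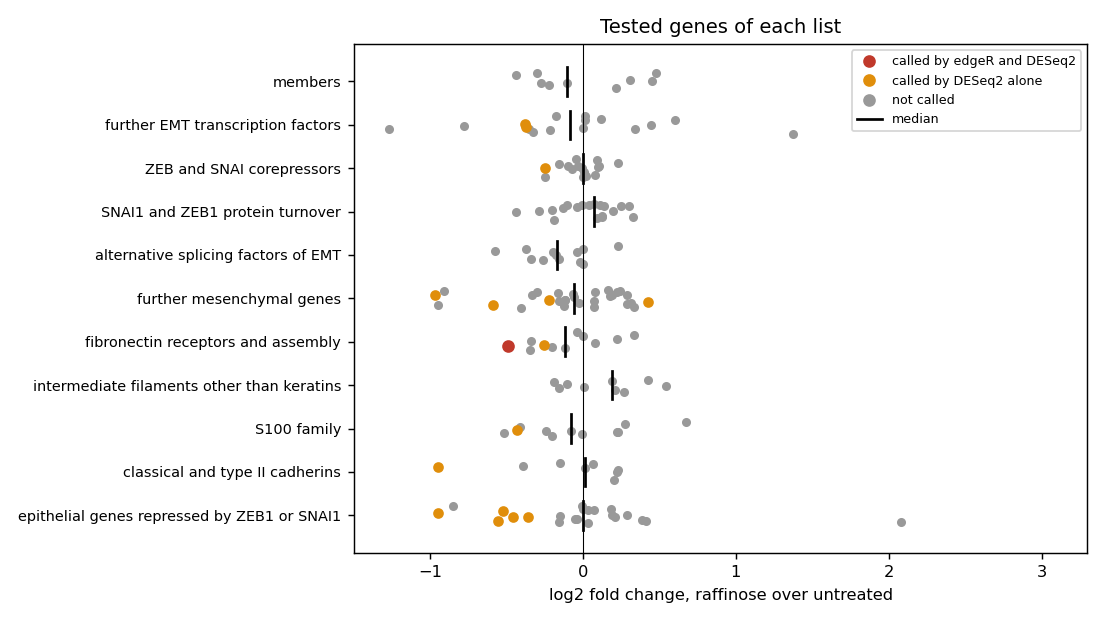
Log2 fold change of raffinose over untreated for each tested gene of the members and of 10 lists, with black bars at list medians and colour for calls by edgeR and DESeq2. No member is coloured, and TGM2 is the one gene called by both tools.

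Total counts ranged from 59723420 to 66063664 per library. Of 9 pancreatic ductal markers 4 reached a mean of 1 FPKM, and their summed level was 658 to 690 FPKM with raffinose, against 853 to 994 FPKM without. KRT8 and KRT18, described above, made up nearly all of that sum. KRT19 stayed at or under 0.228 FPKM. Of 10 fibroblast markers 2 reached 1 FPKM, with a summed level of 44.8 to 47.5 FPKM with raffinose, against 48.1 to 52.3 FPKM without. COL3A1 made up most of that sum, at 40.2 to 43.2 FPKM with raffinose, against 44.55 to 48.3 FPKM without. COL1A1 lay the other way, at 3.59 to 3.98 FPKM with raffinose, against 3.03 to 3.16 FPKM without. Of the 6 tested fibroblast markers 3 had positive and 3 negative fold changes. Of 8 leukocyte markers CD68 alone reached 1 FPKM, PTPRC was under that level and CD3E, CD3D and MS4A1 were listed at 0. The summed level of the 8 was 7.07 to 9.54 FPKM with raffinose, against 12.5 to 16.04 FPKM without. CD68 made up most of that sum, at 6.59 to 9.07 FPKM with raffinose, against 12.15 to 15.75 FPKM without. It was called lower by DESeq2 (adjusted p = 0.000599), as 3.51% of all tested genes were called, and not by edgeR (adjusted p = 0.146). Of 5 endothelial markers none reached 1 FPKM, with sums of at most 0.0991 FPKM with raffinose, against 0.116 FPKM without. The part of these marker levels in the results above was not tested.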

How the data were processed

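Per the file headers, the authors deposited FPKM and estimated counts for every gene in each of 6 libraries. The submitters' processing notes list HISAT2 2.0.4, StringTie 1.3.4d, cutadapt 1.9, DESeq2 and edgeR, with no roles. Neither build nor annotation is given in the sources used here. In start or end, 8 of the 10 members match GENCODE 29, and only 2 match in both. In the deposited estimated counts 1382 genes of raffinose replicate 1 had a count of 4, against 456 at 3 and 286 at 5, so 1 read pair seems to add 4.

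The members and lists were chosen with earlier results of these data known. The deposited counts went unchanged into edgeR 4.0.16 (filterByExpr with a minimum count of 10, TMM, glmQLFTest, Benjamini-Hochberg over 18863 genes) in R 4.3.3. DESeq2 1.42.0, limma 3.58.1 on log2(FPKM + 1) and log2(FPKM + 0.1), other scalings and filters, counts divided by 4, a replicate block and each library left out were alternatives. CPM uses TMM library sizes. The SE is the fold change over the root of the F statistic. Intervals cover the spread between libraries and floors cover counting error only. Methods were tested on simulated data. Named genes are all members, genes that overlap them, fixed epithelial counterparts, and in each of 15 lists the smallest p, the highest levels and every call. Some genes that this rule takes are not reported here.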

Additional observations from a re-analysis of the deposited data

How the results depend on the processing

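No member was called by any of the 15 alternatives, and the lowest adjusted p of a member was 0.0989, for ZEB2 by DESeq2. Of 130 member and alternative pairs 128 kept their direction. With 1 library left out, CDH2 ranged from -0.217 to 0.047 and turned positive without untreated replicate 2. ESRP1 ranged from -0.013 to 0.537 and turned negative without untreated replicate 1. The cause was not tested. The log2 fold change of ZEB2 ranged from 0.05 on log2(FPKM + 1), where its level is under the pseudocount, to 0.51, and that of VIM from -0.30 to -0.17. ESRP1 rests on 3 to 8 read pairs per library, and TWIST1 on 0.

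Over all genes, against 7 higher and 16 lower, DESeq2 called 254 and 409, the filter at FPKM 1 gave 15 and 27, counts divided by 4 gave 11 higher, and limma on log2(FPKM + 0.1) gave 11 higher. With each library left out, 0 to 15 were higher and 4 to 13 lower; untreated replicate 3 was the one missing at 0, and 1969 genes then reached an unadjusted edgeR p under 0.05. Against 1 list gene, DESeq2 called 17, and 2 were called with counts divided by 4, at FPKM 1, with limma at either pseudocount, and without scaling beyond library size; 0 were called with each library left out.

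The replicate block gave 0 genes higher, 0 lower, 0 list genes and 0 members in edgeR, with 1932 genes at an unadjusted p under 0.05. Between same-numbered libraries the deviations correlated at -0.018, -0.063 and 0.014, so no pairing by number was seen.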

Other observations

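Libraries of 1 group lay far from each other in several list genes. The 5 given here are examples chosen after their values were seen. The splicing repressor PTBP1 was at 17.7, 40.7 and 18.8 FPKM in raffinose replicates 1, 2 and 3, against 43.0, 25.2 and 27.0 FPKM in untreated replicates 1, 2 and 3. MBNL1, a splicing factor of differentiated cells, was at 6.01, 10.5 and 5.87 FPKM with raffinose, against 10.1, 11.3 and 11.4 FPKM without. Raffinose replicate 2 had the highest raffinose value of both. It also had the highest raffinose value of the methyltransferase SUV39H1, at 6.80, 15.6 and 6.89 FPKM in raffinose replicates 1, 2 and 3, against 7.93 to 8.33 FPKM in untreated ones. The claudin gene CLDN4 was lowest there, at 5.33, 0.323 and 5.55 FPKM with raffinose, against 6.06 to 7.19 FPKM without. MIR31HG was at 0.863 FPKM in raffinose replicate 1 and at 2.49 and 2.77 FPKM in the other raffinose libraries, against 3.09 to 3.33 FPKM in untreated ones. None of the 5 genes passed by edgeR or DESeq2.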
